A study of Homo sapiens with 6 samples.

Results

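The 40 genes described here encode the machinery that copies DNA and the enzymes that supply its building blocks. They were chosen as a list of gene symbols, with earlier results of these data known. Each symbol matched 1 of the 61806 rows of the count table. They fall into 6 subgroups, namely 12 genes of the MCM and GINS helicase, 9 of the polymerases and primase, 6 of the clamp PCNA and its loader RFC, 5 of origin licensing, 4 of nucleotide supply, and 4 of strand joining and chromatin assembly.

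RNA was sequenced from MV4-11, a human acute myeloid leukaemia (AML) cell line, in 6 libraries. Of these, 3 carried a control short hairpin RNA (shNC) and 3 were labelled shATGL, a hairpin against *ATGL*. *ATGL* is the common name of *PNPLA2*, which encodes the lipase that starts the breakdown of stored triacylglycerol. The labels name neither the hairpin sequence used, nor whether the cells were a clone or a pool, nor a time after transduction, and nothing in them says that the 3 libraries of a group came from separate cultures. The p-values therefore measure only the spread between these libraries, which may be technical.

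Before a cell divides, the origin recognition complex, CDC6 and CDT1 load the MCM ring onto origins, and geminin prevents a second loading in the same cycle. CDC45 and GINS then turn the ring into an active helicase, primase starts each strand, and polymerases delta and epsilon extend it on the PCNA clamp. Many of these genes are switched on together in late G1 by E2F transcription factors, and rapidly dividing leukaemia cells express them strongly.

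*PNPLA2* had CPM values of 101, 97.0 and 107 in the controls (shNC 1, 2 and 3) against 102, 98.1 and 104 in shATGL 1, 2 and 3. CPM is the count scaled to the library's effective size after TMM normalization. The groups overlapped and the log2 fold change of shATGL over shNC was -0.01 (SE 0.06, 95% interval -0.15 to 0.14, edgeR quasi-likelihood test, adjusted p = 0.979). No decrease of the targeted transcript was detected in the libraries labelled shATGL, and every direction below is between labels.

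Total counts ran from 59674064 to 74808280 per library, and all 40 genes passed the filter on low counts, with 1112 to 53366 counts each. Of 9 myeloid marker genes, 9 were detected in every library, with a summed level of 2082 to 2245 CPM in shNC and 1900 to 2077 CPM in shATGL. *CD3D*, *CD3G*, *MS4A1*, *HBB*, *EPCAM*, *KRT5* and *COL1A2*, which mark T, B, erythroid, epithelial and stromal cells, were at 0 in all 6 libraries. The library shATGL 3 stood apart from the other libraries with its label. On the first principal component of all genes, which held 40.5% of the variance, shATGL 3 lay at -21.1, within the range of shNC (-22.7 to -4.48), while shATGL 1 and 2 lay at 31.5 and 30.7. Mitochondrially encoded genes took 6.34% and 6.51% of the counts in shATGL 1 and 2, against 7.66% in shATGL 3 and 7.41% to 8.17% in shNC. The 10 most abundant genes took 7.78% and 7.83% in shATGL 1 and 2, against 8.80% in shATGL 3 and 8.67% to 9.25% in shNC. The part of these library differences in the results was not tested.

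The promoters of these genes were searched for the letters of the E2F site, since E2F sites are the textbook feature the genes share. A promoter was taken as 250 bases before and 50 after the RefSeq start (GRCh38.p14), and 36 of the 40 genes had one. The E2F letters were TTTCCCGC, TTTCGCGC, TTTGCCGC and TTTGGCGC, read on both strands. They occurred in 17 of the 36 promoters (47.2%), against 593 of 11066 promoters of tested protein-coding genes (5.36%). The whole promoter is shown for 4 genes, the capitals marking the E2F letters on either strand. *POLE* had the smallest p of the 40 genes, *PCNA* and *GINS2* had the most negative log2 fold changes, and *RFC1*, whose promoter held no match, had the largest. They lie at chr12:132687293-132687592, chr20:5126573-5126872, chr16:85688905-85689204 and chr4:39366313-39366612, all on the minus strand.
POLE: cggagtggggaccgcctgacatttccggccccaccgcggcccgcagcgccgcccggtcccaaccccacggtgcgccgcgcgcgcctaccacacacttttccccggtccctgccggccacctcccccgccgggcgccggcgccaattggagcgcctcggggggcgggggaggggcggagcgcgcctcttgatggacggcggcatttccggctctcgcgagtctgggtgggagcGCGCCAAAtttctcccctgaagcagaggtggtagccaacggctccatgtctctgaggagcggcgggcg
PCNA: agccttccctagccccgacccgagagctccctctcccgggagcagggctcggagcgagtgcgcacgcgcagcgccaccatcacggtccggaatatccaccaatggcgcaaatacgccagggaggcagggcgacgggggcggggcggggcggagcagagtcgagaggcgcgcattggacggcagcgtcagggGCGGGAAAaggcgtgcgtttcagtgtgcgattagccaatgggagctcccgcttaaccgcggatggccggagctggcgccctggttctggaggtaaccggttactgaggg
GINS2: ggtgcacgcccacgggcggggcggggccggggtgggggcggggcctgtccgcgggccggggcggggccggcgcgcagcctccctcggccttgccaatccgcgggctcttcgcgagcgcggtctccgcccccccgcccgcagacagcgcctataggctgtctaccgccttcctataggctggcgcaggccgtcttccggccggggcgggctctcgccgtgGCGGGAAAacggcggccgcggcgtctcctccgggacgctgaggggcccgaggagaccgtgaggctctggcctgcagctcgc
RFC1: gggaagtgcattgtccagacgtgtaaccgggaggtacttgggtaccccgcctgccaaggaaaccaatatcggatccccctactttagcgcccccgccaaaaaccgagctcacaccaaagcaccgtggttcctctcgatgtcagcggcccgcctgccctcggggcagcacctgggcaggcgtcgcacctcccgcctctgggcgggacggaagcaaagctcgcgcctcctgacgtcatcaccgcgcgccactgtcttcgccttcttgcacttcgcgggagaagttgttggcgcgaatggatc

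The 23 matches began between positions -187 and 7 counted from the start base, and 15 of them lay within 60 bases of it. TTTCCCGC accounted for 9 matches, TTTCGCGC for 7 and TTTGGCGC for 7. At least 2 matches were found in 4 of the 36 promoters, against 0.262% of all promoters, and these were the MCM genes *MCM2*, *MCM3*, *MCM6* and *MCM7*. Some of these overlap, because a match on one strand can share bases with a match on the other. The windows below give 8 bases either side of a match, turned so that the match reads forward, for the first *MCM6* match, 1 match each of *MCM2*, *MCM3* and *MCM7*, and the matches of *CDC6*, *TYMS* and *POLA1*.
MCM6: gctttgcaTTTGGCGCgaaatccc
MCM2: gaaccactTTTCGCGCgaaacctg
MCM3: tcggaagtTTTCGCGCcggggtgg
MCM7: gggcgacgTTTCGCGCcaatttcg
CDC6: cattcggaTTTGGCGCgagcgcgg
TYMS: gcgcgcctTTTCCCGCggccgtcc
POLA1: gacgcgcgTTTGGCGCcctgtgat

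The letters TTTGAA, the CHR element known from genes of late cell cycle, were searched in the same way. They occurred in 1 of 36 replication promoters (2.78%), 9.99% of all promoters, and 17 of 23 promoters of mitosis and spindle genes (73.9%). The E2F letters occurred in 3 of those 23 (13%), in 30% of the promoters of E2F and G1/S regulators and in 23.1% of those of other pathway genes. CCAAT, the NF-Y box, occurred in 20 of the 36 (55.6%) and in 36.5% of all promoters. Its share was 78.3% in the mitosis promoters and 56.4% in those of other pathway genes. The 17 genes with E2F letters had a median log2 fold change of -0.06, with 12 lower in shATGL, and the 19 without had a median of -0.05, with 12 lower. Without shATGL 3 these medians were -0.12 and -0.04. The difference between them was not tested. A match is a description of letters and was not shown to be a bound site.

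**Figure D1:**
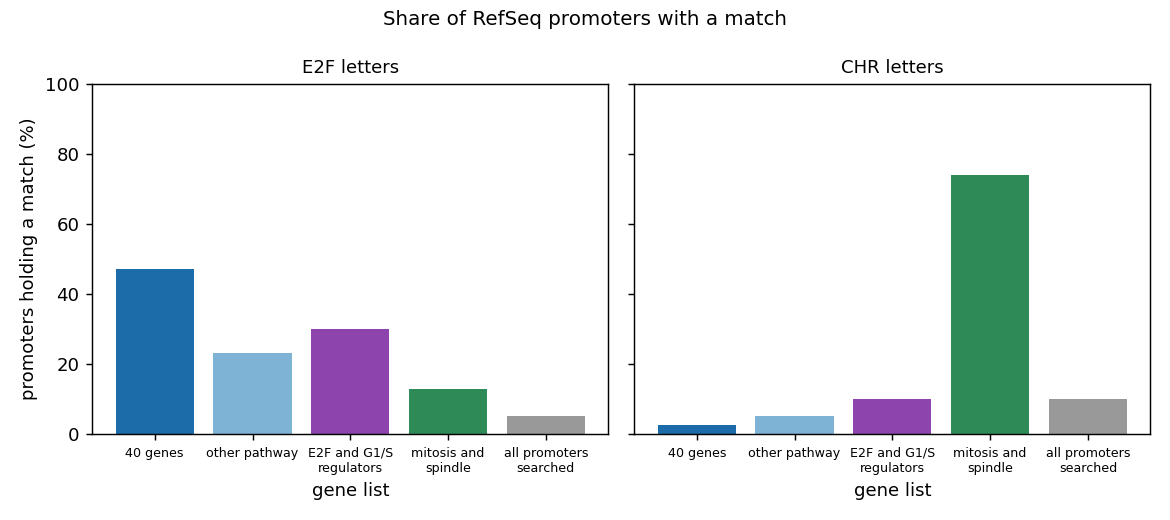
Share of promoters (%) that hold the E2F letters (left) or the CHR letters (right) for 5 sets of genes, 1 bar a set. E2F letters were found in 47.2% of the replication promoters and 5.36% of all promoters, and CHR letters in 73.9% of the mitosis promoters and 2.78% of the replication promoters.

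Levels of different genes are compared per kb of exon. *MCM3*, a subunit of the helicase ring, was the highest at 197 CPM per kb (mean of 6 libraries), followed by *PCNA* at 116, *TYMS* at 113, *MCM7* at 111 and *TK1* at 105 CPM per kb. The order of *PCNA*, *TYMS* and *MCM7* was within their ranges over the libraries. At the low end stood *GINS3* at 5.36, *POLE2* at 6.74, *POLA1* at 6.78 and *RFC1* at 7.96 CPM per kb. The ring subunits *MCM2* to *MCM7* exceeded the GINS subunits, of which *GINS1* was the highest at 16.1 CPM per kb. For 37 of the 40 genes the rank stayed within 5 places when the longest transcript was used as the length, a check added after the data were seen.

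**Figure D2:**
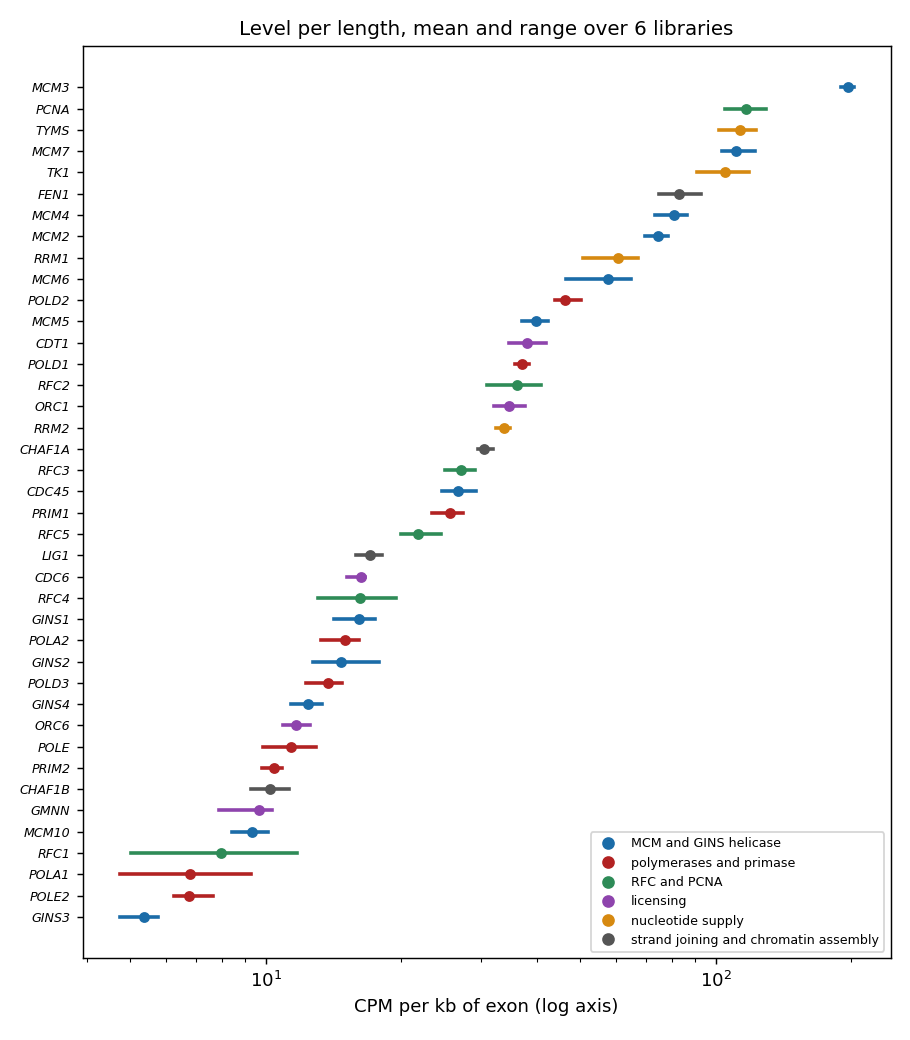
Level of each gene in CPM per kb of exon (log axis), the point being the mean and the line the range over the 6 libraries, coloured by subgroup. The levels run from 5.36 for *GINS3* to 197 for *MCM3*, and *RFC1* and *POLA1* have the widest ranges.

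The question put to the 40 genes is whether their level differed between shATGL and shNC. None passed the test at an adjusted p under 0.05 (edgeR quasi-likelihood, Benjamini-Hochberg over 19149 genes, smallest adjusted p = 0.392), and of all genes tested 0.00522% did. DESeq2 called 0 of the 40 as well, against 0.555% of its genes, and limma voom with quality weights called 8, against 10.8%. Of these 8, *POLE* and *RFC1* were higher, and 6 were lower, namely *PCNA*, *FEN1*, *POLA2*, *TYMS*, *TK1* and *MCM4*. Of all 19149 genes voom called 1067 higher and 1009 lower. At an unadjusted p under 0.05 in edgeR, 1 of the 40 was higher in shATGL and 5 were lower, against 5.77% and 5.94% of all genes. The log2 fold change was negative for 28 of the 40, against 48.1% of all genes, and positive for 12, against 51.9%. Its median was -0.06, against 0.01 over all genes. These are counts over genes that share libraries, and the choice of the genes was made with earlier results known.

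The differences were small and fairly tightly bounded. The absolute log2 fold change was under 0.1 for 24 of the 40 genes, and the 95% interval lay within 1.5-fold either way for 38 and within 2-fold for 39. The exception to the latter was *RFC1*. The coefficient of variation over the 6 libraries was under 10% for 33 genes. Summed over the 40 genes, the level was 6259, 6224 and 6411 CPM in shNC and 6015, 6011 and 6189 CPM in shATGL, or 96.4% of the shNC mean. Every shATGL sum was below every shNC sum, and shATGL 3 lay nearest to shNC. In bulk RNA, fewer cells that express a gene and less of its RNA per cell cannot be told apart.

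**Figure D3:**
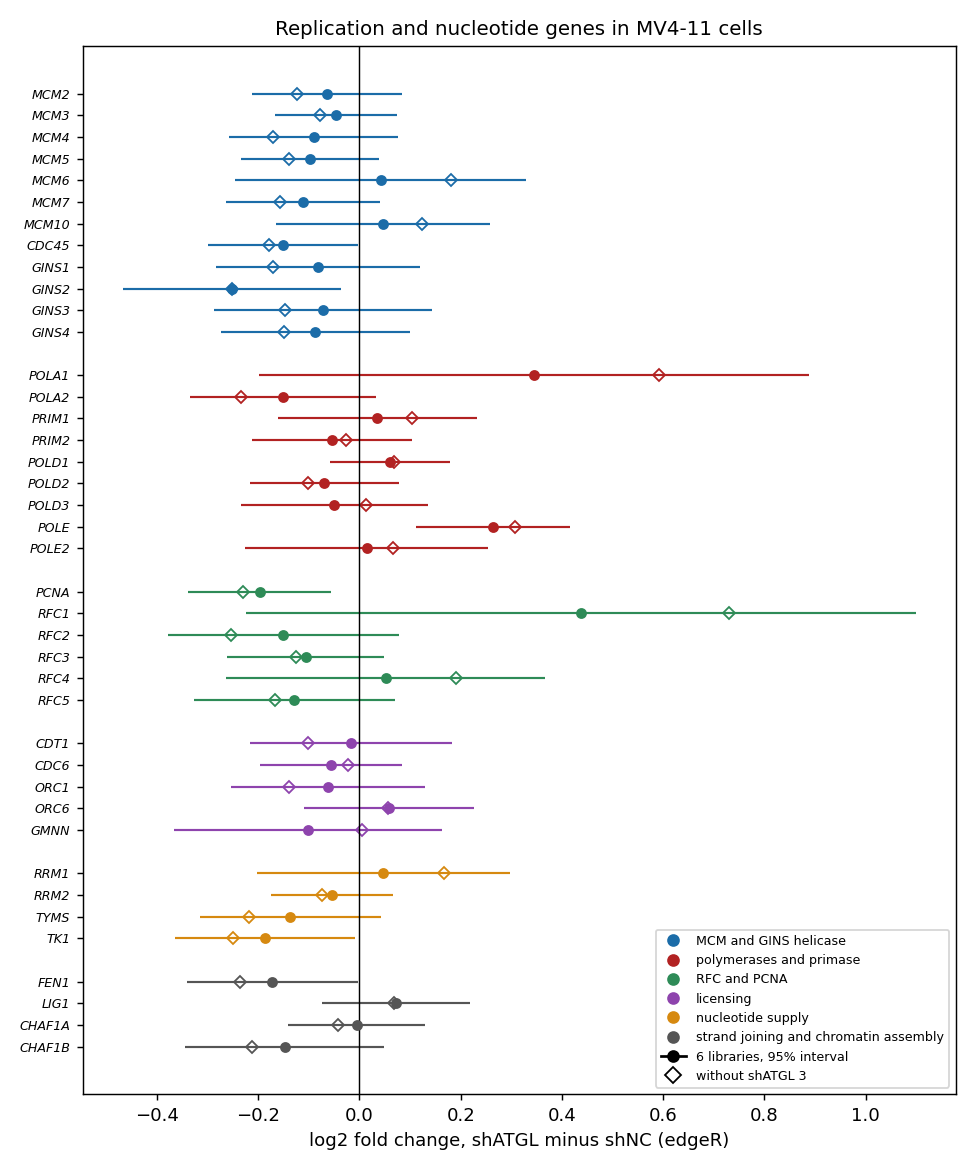
Log2 fold change of shATGL over shNC for each gene (x axis) by subgroup, with filled points and 95% intervals for all 6 libraries and open diamonds for the fit without shATGL 3. Most genes lie within 0.2 of 0, while the diamonds of *RFC1* (0.73) and *POLA1* (0.59) lie well to the right of their filled points (0.44 and 0.35).

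Of the 12 helicase genes, 10 had a negative log2 fold change and 2, *MCM6* and *MCM10*, a positive one, with a subgroup median of -0.08 (-0.15 without shATGL 3, -0.05 without shATGL 2). *GINS2*, a subunit of the GINS complex, was measured at 50.5, 47.7 and 58.3 CPM in shNC and at 46.2, 41.6 and 43.6 CPM in shATGL. All 3 shATGL libraries were below all 3 shNC libraries. Its log2 fold change was -0.25 (SE 0.09), with unadjusted p = 0.0271 and adjusted p = 0.397 by edgeR. *CDC45*, which joins the ring to GINS, had 77.7, 78.3 and 83.5 CPM in shNC and 71.3, 69.9 and 74.6 CPM in shATGL, again without overlap. Its log2 fold change was -0.15 (SE 0.06, edgeR adjusted p = 0.421).

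*MCM3* had 737, 712 and 739 CPM in shNC and 693, 691 and 735 CPM in shATGL, so that shATGL 3 lay among the controls. Its log2 fold change was -0.05 (SE 0.05). *GINS3*, the lowest of the subgroup per kb, had 28.0, 27.4 and 28.6 CPM in shNC and 26.5, 24.1 and 29.4 CPM in shATGL, with log2 fold change -0.07 (SE 0.09). *MCM4* and *MCM6*, chosen after their values were seen, are examples of the split within shATGL. *MCM4* had 579, 580 and 581 CPM in shNC and 519, 512 and 602 CPM in shATGL. *MCM6* had 239, 236 and 228 CPM in shNC and 267, 264 and 191 CPM in shATGL. In both genes shATGL 3 lay on the opposite side of shNC from shATGL 1 and 2. The ratio of *MCM6* to *MCM4* was 0.413, 0.407 and 0.392 in shNC and 0.515, 0.517 and 0.318 in shATGL.

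The 9 polymerase and primase genes had 5 positive and 4 negative log2 fold changes, with a median of 0.01 (0.07 without shATGL 3, 0.03 without shNC 3, 0.00 without shATGL 2, -0.01 without shNC 1 and -0.06 without shATGL 1). *POLE*, the catalytic subunit of the leading-strand polymerase, lies at chr12:132623753-132687365 on the minus strand (GENCODE 29, GRCh38). It was measured at 172, 178 and 164 CPM in shNC and at 211, 214 and 193 CPM in shATGL, without overlap. The log2 fold change was 0.26 (SE 0.07, 95% interval 0.11 to 0.42), with unadjusted p = 0.00404 and adjusted p = 0.392 by edgeR. Its partner *POLE2* had 20.01, 19.14 and 20.31 CPM in shNC and 22.56, 18.99 and 18.50 CPM in shATGL, which overlapped. *POLE3* and *POLE4*, which encode the small subunits of the same enzyme and belong to a wider list of pathway genes (*POLE3* chosen after its value was seen), had log2 fold changes of -0.27 and -0.39. *POLE4* was measured at 40.1, 37.8 and 43.1 CPM in shNC and at 29.9, 27.8 and 34.7 CPM in shATGL, without overlap (edgeR, unadjusted p = 0.00584, adjusted p = 0.392). *POLE* was therefore higher and *POLE4* lower in every shATGL library, neither past the adjusted threshold with 6 libraries in edgeR. Without shATGL 3 the edgeR adjusted p was 0.0105 for *POLE* and 0.0107 for *POLE4*, and limma voom with quality weights gave 0.025 for each.

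*POLD1*, the catalytic subunit of the lagging-strand polymerase and chosen after its values were seen, was higher without overlap (178, 181 and 176 CPM against 186, 190 and 184 CPM), by a log2 fold change of only 0.06 (SE 0.05). *POLD2*, the highest of the subgroup per kb, had 168, 170 and 185 CPM in shNC and 164, 162 and 173 CPM in shATGL. *POLA1*, the catalytic subunit of the priming polymerase, and *POLA2* were chosen after their values were seen. *POLA1* had 39.0, 41.2 and 33.4 CPM in shNC and 55.4, 58.7 and 30.0 CPM in shATGL, and its accessory subunit *POLA2* had 91.0, 88.5 and 92.1 CPM and 76.1, 78.0 and 90.3 CPM. The *POLA1* to *POLA2* ratio was 0.428, 0.465 and 0.363 in shNC and 0.728, 0.752 and 0.332 in shATGL. Here again shATGL 1 and 2 were above every control and shATGL 3 was below every control.

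**Figure D4:**
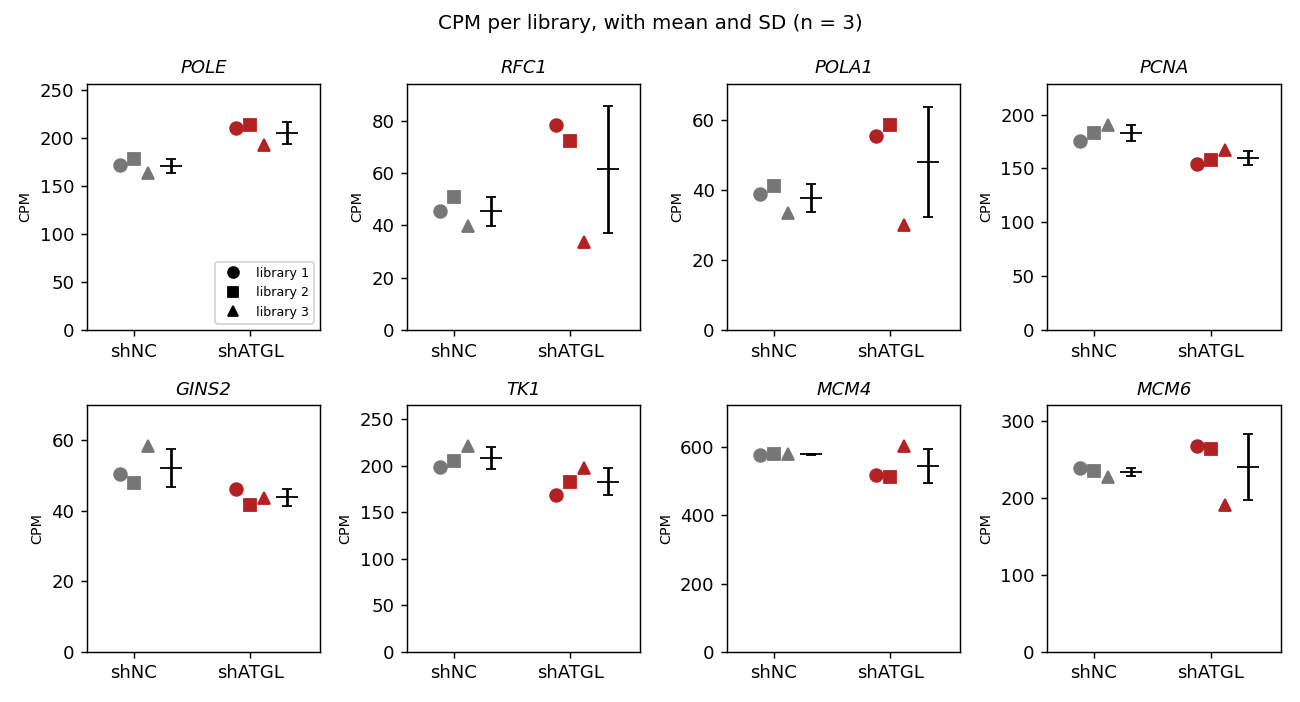
CPM of 8 genes in each library (points, with library number by shape), with the mean and SD of each group of 3 beside them. *POLE* is higher and *PCNA*, *GINS2* and *TK1* are lower in all shATGL libraries, while shATGL 3 departs from shATGL 1 and 2 in *RFC1*, *POLA1*, *MCM4* and *MCM6*.

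Of the clamp and clamp loader genes, 4 of 6 had a negative log2 fold change and the median was -0.12. *PCNA*, the sliding clamp (chr20:5114953-5126626, minus strand), was measured at 176, 183 and 191 CPM in shNC and at 154, 158 and 167 CPM in shATGL. The groups did not overlap, and the log2 fold change was -0.20 (SE 0.06, edgeR unadjusted p = 0.0127, adjusted p = 0.392). *RFC1*, the large subunit of the loader, had 45.6, 50.8 and 39.9 CPM in shNC and 78.6, 72.2 and 33.6 CPM in shATGL. Its log2 fold change of 0.44 was the largest of the 40 genes in size, with an SE of 0.28 and a 95% interval of -0.22 to 1.10. In the edgeR fit of 6 libraries it could not be told from 0. With limma voom and quality weights the adjusted p was 0.0483 for *RFC1* and 0.0326 for *PCNA*. Without shATGL 3 the edgeR adjusted p was 0.00494 for *RFC1* and 0.0269 for *PCNA*. The ratio of *RFC1* to *PCNA* was 0.260, 0.278 and 0.209 in shNC and 0.510, 0.457 and 0.202 in shATGL.

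Among the licensing genes 4 of 5 had a negative log2 fold change, the median being -0.06. This median was -0.02 without shATGL 3, -0.03 without shATGL 1, shATGL 2 or shNC 2, and -0.01 without shNC 3. *CDC6*, which helps load the ring, had 91.7, 91.9 and 92.3 CPM in shNC and 90.4, 91.1 and 84.0 CPM in shATGL, a narrow separation without overlap (log2 fold change -0.06, SE 0.06). *CDT1*, its partner in loading, had 122, 125 and 135 CPM in shNC and 122, 116 and 140 CPM in shATGL. *GMNN*, which encodes geminin, the inhibitor of CDT1, had 25.5, 24.7 and 24.0 CPM in shNC and 24.5, 25.3 and 19.5 CPM in shATGL. The groups overlapped for both genes, and shATGL 3 was the highest of the 6 libraries for *CDT1* and the lowest for *GMNN*.

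In nucleotide supply, 3 of 4 genes had a negative log2 fold change, with a median of -0.10 (-0.15 without shATGL 3). *TK1*, the thymidine kinase of the salvage route, was measured at 198, 205 and 221 CPM in shNC and at 169, 182 and 198 CPM in shATGL. The highest shATGL library lay just below the lowest control, and the log2 fold change was -0.19 (SE 0.08, edgeR adjusted p = 0.414). *TYMS*, which makes thymidylate, had 296, 281 and 303 CPM in shNC and 251, 254 and 295 CPM in shATGL, with log2 fold change -0.14 (SE 0.08). *RRM2*, the radical-bearing subunit of ribonucleotide reductase, had 181.9, 186.0 and 181.5 CPM and 173.0, 175.4 and 180.8 CPM, a narrow separation without overlap, with log2 fold change -0.05 (SE 0.05). *RRM1*, its catalytic partner and chosen after its values were seen, had 255, 248 and 243 CPM and 279, 280 and 212 CPM.

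For strand joining and chromatin assembly, 3 of 4 genes had a negative log2 fold change and the median was -0.08 (-0.13 without shATGL 3, -0.05 without shATGL 1). *FEN1*, the flap nuclease that trims Okazaki fragments, had 216, 208 and 230 CPM in shNC and 185, 185 and 210 CPM in shATGL, with shATGL 3 above 1 control. Its log2 fold change was -0.17 (SE 0.07, edgeR adjusted p = 0.421). *CHAF1B*, a subunit of the histone chaperone CAF-1, had 57.6, 50.7 and 56.6 CPM in shNC and 47.4, 47.7 and 53.8 CPM in shATGL, and *LIG1*, the ligase, had a log2 fold change of 0.07 (SE 0.06).

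Groups did not overlap for 8 of the 40 genes, against 17.3% of all genes. Of these, *POLE* and *POLD1* were higher in shATGL, 2 genes against 7.93%, and *GINS2*, *CDC45*, *PCNA*, *CDC6*, *RRM2* and *TK1* were lower, 6 genes against 9.38%. At this group size the two-sided p of an exact permutation test has a floor of 0.1, which these 8 genes reached. Some counts cannot be assigned to 1 gene with certainty, since the strand setting of the counting is not given. *POLA2* shares 2012 exon bases with *AP000944.2* on its own strand, *POLD1* 426 with *AC020909.1* and *CHAF1B* 89 with *MORC3*, also on their own strands. On the other strand, *GINS4* shares 1159 exon bases with *AC009630.2* (0.161%), *MCM2* 1113 with *AC023593.1* (0.78%) and *TYMS* 967 with *ENOSF1* (30%). Also on the other strand, *GINS3* shares 558 with *AC009118.2* (0.763%), *MCM7* 392 with *AP4M1* (2.45%), *RFC5* 186 with *WSB2* (68.7%) and *FEN1* 166 with *TMEM258* (11.1%).

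The level of shATGL 3 was nearer to the shNC mean than to the other shATGL libraries for 30 of the 40 genes, against 65.3% of all genes. The libraries shATGL 1 and 2 were both above every control for 9 of the 40 and both below every control for 22, against 24.9% and 24.1% of all genes. Without shATGL 3, the edgeR test called 12 of the 40 at an adjusted p under 0.05, against 14% of all genes. Of these, 5 were higher and 7 lower, against 7.94% and 6.07%. The 5 were *RFC1* (log2 fold change 0.73), *POLA1* (0.59), *POLE* (0.31), *MCM6* (0.18) and *RRM1* (0.17). The 7 were *RFC2* (-0.25), *TK1* (-0.25), *FEN1* (-0.24), *POLA2* (-0.23), *PCNA* (-0.23), *TYMS* (-0.22) and *MCM4* (-0.17). These calls compare 2 libraries with 3, and they rest on leaving out a library that carries the same label.

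**Figure D5:**
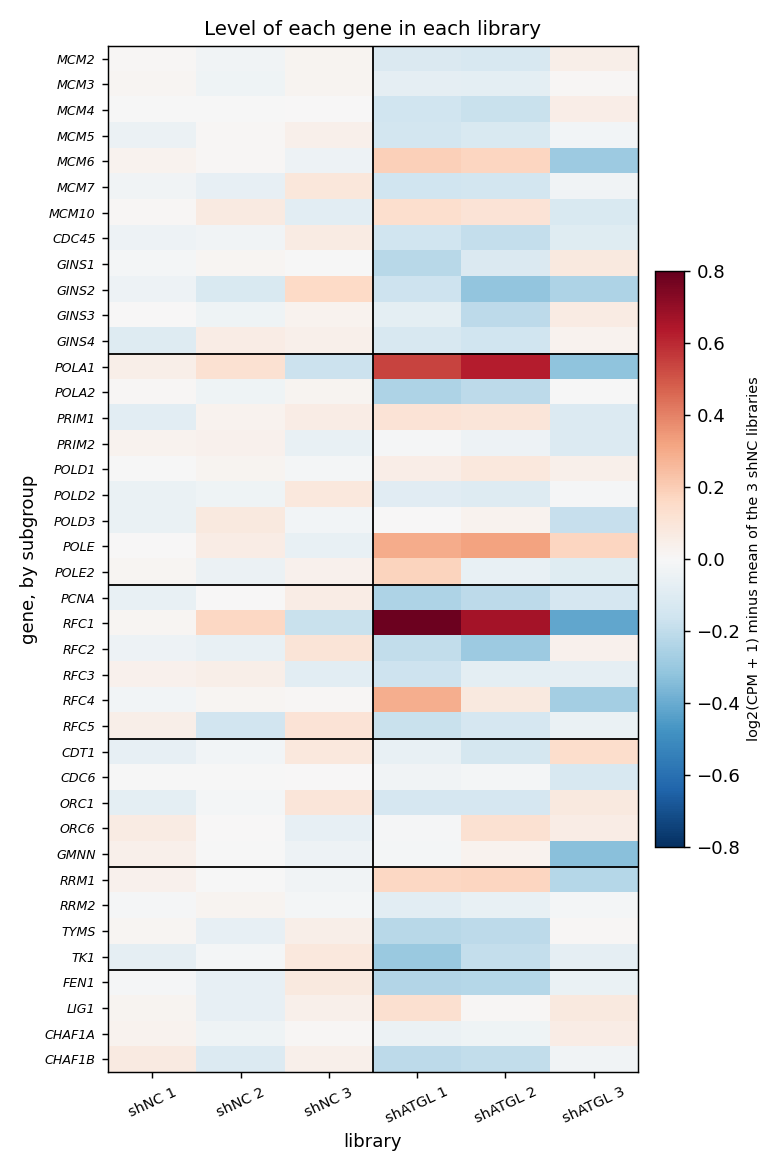
Level of each gene (rows, by subgroup) in each library (columns) as log2(CPM + 1) minus the mean of the 3 shNC libraries, red for higher and blue for lower. In shATGL 1 and 2 most rows are pale blue and *RFC1*, *POLA1* and *POLE* are red, while in shATGL 3 *RFC1*, *POLA1* and *MCM6* are blue.

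The genes did not all vary in 1 direction over the 6 libraries. The median Pearson r of log2(CPM + 1) over their 780 pairs was 0.09, against 0.00 over all pairs of tested genes, and 18.2% of the pairs had an r of at least 0.8 and 11.3% an r of at most -0.8, against 5.99% and 5.73%. Within the helicase genes the median r was 0.71 over 66 pairs, and 15.2% of those pairs had an r of at most -0.8. With group means removed their median r was 0.63, and that of strand joining and chromatin assembly, over 6 pairs, was 0.66. The median was then 0.38 for polymerases and primase, -0.12 for nucleotide supply, -0.36 for RFC and PCNA and -0.45 for licensing. With group means kept, RFC and PCNA had a median r of -0.37 and licensing one of -0.43. The first component of the 40 standardised levels held 63.6% of their variance. It correlated at 0.8 or above with 6 genes, *POLA1*, *RFC1*, *MCM10*, *RRM1*, *MCM6* and *POLE*, and at -0.8 or below with 18, with *MCM2*, *TYMS*, *POLA2* and *RFC2* at that end. The libraries scored 0.56 and 0.54 in shATGL 1 and 2, -0.40 in shATGL 3, and -0.16, -0.08 and -0.45 in shNC. These are 6 libraries of 1 cell line that share depth and composition, so the correlations are descriptions only.

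Transcript length moved with these differences. Spearman's rho between log2 fold change and transcript length was 0.39 over the 40 genes and 0.22 over all genes. The 20 longer genes had a median log2 fold change of -0.05 and the 20 shorter of -0.10. With each library's trend on length and GC content removed, 33 of the 40 were lower, against 60.4% of all genes, and the median was -0.12, against -0.06 over all genes. At an unadjusted p under 0.05, 10 were then lower and 1, *POLE*, higher, against 10.5% and 4.39% of all genes. The part of length in the differences was not tested.

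Of 50 other genes of the pathway, 24 had a positive and 26 a negative log2 fold change, against 51.9% and 48.1% of all genes. None passed the adjusted threshold with 6 libraries in edgeR. At an unadjusted p under 0.05, 3 were higher and 8 lower, against 5.77% and 5.94% of all genes. Without shATGL 3 the edgeR test called 10 higher and 9 lower, against 7.94% and 6.07% of all genes. With all 6 libraries, limma voom with quality weights called 5 higher and 8 lower. Of all 19149 genes it called 1067 higher and 1009 lower, 10.8% with both directions together. *ATAD5*, which helps unload PCNA, had 15.8, 17.9 and 14.9 CPM in shNC and 36.7, 36.2 and 16.2 CPM in shATGL, with only shATGL 3 within the range of the controls (log2 fold change 0.87, SE 0.29). *CHTF18*, a subunit of another clamp loader, had 72.3, 76.8 and 71.6 CPM and 98.5, 94.0 and 78.1 CPM, higher in every shATGL library (log2 fold change 0.29, SE 0.09). *RNASEH2A*, which removes RNA from DNA, had 71.9, 69.8 and 78.1 CPM and 61.3, 61.4 and 66.2 CPM, lower in every one (-0.22, SE 0.07). *DUT*, which keeps uracil out of DNA, had 151, 151 and 157 CPM and 128, 131 and 145 CPM, without overlap (-0.19, SE 0.07). Of 24 E2F and G1/S regulators, 17 were lower, against 48.1% of all genes. Of these, 2 had an unadjusted p under 0.05, *CCNA2* and *CDKN2C* (named after their values were seen), against 5.94% of all genes. Without shATGL 3, 2 regulators were called higher and 3 lower, against 7.94% and 6.07% of all genes. Of 28 mitosis and spindle genes, 15 were higher and 13 lower, against 51.9% and 48.1% of all genes. At an unadjusted p under 0.05, 3 of them were higher, against 5.77% of all genes, and 5 lower, against 5.94%. Without shATGL 3, 11 were called higher and 5 lower, against 7.94% and 6.07%. The 5 lower in the fit of 6 libraries, named after their values were seen, were *CCNB1*, *CCNB2*, *MAD2L1*, *KIF2C* and *AURKA*, with log2 fold changes between -0.18 and -0.15. *CCNB1*, the mitotic cyclin, had 238, 231 and 250 CPM in shNC and 209, 202 and 225 CPM in shATGL, without overlap. *CENPE*, a mitotic motor, had 38.0, 39.4 and 36.4 CPM in shNC and 85.8, 87.4 and 42.2 CPM in shATGL (log2 fold change 0.92, SE 0.25), and *MKI67*, the proliferation marker, had 299, 341 and 313 CPM and 552, 554 and 317 CPM (0.58, SE 0.20). *CENPF*, a kinetochore protein, had 70.1, 72.4 and 75.7 CPM in shNC and 178, 181 and 67.8 CPM in shATGL, a log2 fold change of 0.97 (SE 0.33), so that the same 2 libraries were high there as for *RFC1* and *POLA1*.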

How the data were processed

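RNA of MV4-11 cells was sequenced in 3 shNC and 3 shATGL libraries, grouped by the sample labels. The authors filtered reads with FASTP and deposited raw read counts per Ensembl gene, without normalization. The aligner, counter, strand setting and annotation are not given in the sources used here. The submitters' processing notes name mm10, a mouse build, although the identifiers are human. The labels give 2 differing accounts of RNA extraction and library construction. Library totals (shNC 1 to 3) came to 73360677, 60003349 and 73753615 counts, and those of shATGL 1 to 3 to 72149261, 74808280 and 59674064.

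The groups were compared by edgeR 4.0.16 under R 4.3.3 (filterByExpr, minimum count 10 and total 15, TMM, quasi-likelihood test, no covariate), which tested 19149 of 61806 genes with Benjamini-Hochberg adjustment. Alternatives used DESeq2 1.42.0, limma 3.58.1 (voom with quality weights), other scalings and filters, a replicate block, length and GC splines (4 degrees of freedom), and each library left out. The scripts were tested on simulated data. Single genes were tested by exact permutation over 20 relabellings (scipy 1.17.1). Positions, exon lengths and overlaps came from GENCODE 29 and promoters from RefSeq.

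The 40 genes, the other lists and the tests were chosen with earlier results of these data known. Values per library are given for genes with an unadjusted p under 0.05 and, in each subgroup, for the gene with the smallest p and those with the highest and lowest level per kb. Of the other lists, up to 8 genes with the smallest p could be named. Genes outside this rule are marked as chosen after their values were seen.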

Additional observations from a re-analysis of the deposited data

How the results depend on the processing

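No member was called in the edgeR fit of 6 libraries, and 8 were called by limma voom with quality weights (10.8% of all genes), which gave shATGL 3 a weight of 0.248. Leaving out each library gave 0 to 12 called members, the 12 without shATGL 3 (14% of all genes). Members higher at an unadjusted p under 0.05 numbered 1, with 3 by voom (15.5% of all genes) and 1 to 6 when a library was left out (6 without shATGL 3, against 14.7% of all genes). Members lower numbered 5, with 2 under upper-quartile scaling (4.65% of all genes), 2 by DESeq2 (3.14%), 15 by voom (15.1%), 10 after the length and GC correction (10.5%) and 1 to 14 when a library was left out. The 14 were without shATGL 3 (14.1% of all genes), and the other 5 such fits gave 1 or 2 (2.25% to 3.88%). The median log2 fold change of -0.06 was -0.117 after the length and GC correction and ran from -0.101 to -0.044 when a library was left out. The number of members lower stayed between 26 and 33 over all 14 alternatives. The median pairwise r of 0.09 was 0.033 with group means removed and 0.047 to 0.154 without a library. The level of *MCM3* per kb was 224 with the longest transcript as length. For *PNPLA2* the log2 fold change ran from -0.024 to 0.033 when a library was left out, changing sign without shNC 3 (0.033) and without shATGL 2 (0.018).

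Whether the replicate numbers pair the libraries was not settled. The deviations of same-numbered libraries correlated at -0.032, 0.094 and 0.172 over 13935 genes. Those of libraries with different numbers ran from -0.174 to 0.095, and the 2 sets of values overlap. With the replicate number as a block, 0 members were called and 10 were lower and 1 higher at an unadjusted p under 0.05, against 9.41% and 7.92% of all genes.

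Of the 40 members, 30 kept their direction under all 14 alternatives. The length and GC correction turned *MCM6* (-0.0488), *MCM10* (-0.0569), *PRIM1* (-0.04004), *POLE2* (-0.0216) and *RRM1* (-0.0194), voom turned *POLD3* (0.0073), and upper-quartile scaling turned *POLE2* (-0.0014). When a library was left out, 10 members changed sign at least once. Their ranges were -0.04028 to 0.181 for *MCM6*, -0.001544 to 0.124 for *MCM10*, -0.009222 to 0.103 for *PRIM1*, -0.0904 to 0.0141 for *POLD3*, -0.081 to 0.0655 for *POLE2*, -0.0895 to 0.191 for *RFC4*, -0.101 to 0.042 for *CDT1*, -0.172 to 0.0055 for *GMNN*, -0.0198 to 0.166 for *RRM1* and -0.0428 to 0.0134 for *CHAF1A*. The median of the polymerases and primase ran from -0.0591 to 0.0655. The cause of these changes was not tested.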
